A study of Mus musculus with 2 samples.

Results

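Cathepsins, the proteases of the lysosome, and the vacuolar proton pump that acidifies it were compared in RNA sequencing of sorted aortic macrophages. The members were the protein-coding genes of the deposited table whose symbols were Cts followed only by lower-case letters or digits, or began with Atp6v or Atp6ap. This rule took 49 genes, 23 cathepsins and 26 pump members, of 22046 protein-coding genes and 54532 genes in all. It read names only and no measured value.

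Both groups were male ApoE-/- mice on a C57BL/6J background, labelled as 6 weeks old. These mice lack apolipoprotein E and carry high blood lipids. The PDR group (phlegm-dampness retention syndrome) received a high-fat diet for 4 weeks. The SKYD group (spleen and kidney Yang deficiency syndrome) received propylthiouracil, a drug that blocks the making of thyroid hormone, at 10 mg/kg per day for 4 weeks and then the high-fat diet for 2 weeks. Cells of the aorta were sorted on F4/80 and CD11b, and the cells of 5 mice were pooled into 1 library per group. No difference below therefore has a replicate check, and syndrome, drug, time on the diet and age at sampling cannot be told apart. The normal control mice of the study were not analysed here.

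Lysosomes digest proteins, lipids and sugars that a cell takes up or recycles, and macrophages are rich in them because they engulf lipoproteins and dying cells. Cathepsins are made as inactive precursors, and most are cut to their active form and work best in acid. The vacuolar ATPase provides that acid: its V1 sector in the cytosol hydrolyses ATP and turns a rotor, and its V0 sector in the membrane carries protons into the lumen.

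Levels are given as FPKM, the fragments counted on a gene scaled to its length and to the size of the library, which the authors made from reads counted per gene. FPKM times gene length was a whole multiple of a single step in each library, within 0.01 of a read for 100% of the genes above 0, so that the reads behind each value could be recovered. They summed to 23086889 in PDR and 25427863 in SKYD. Differences are log2(FPKM + 1) in PDR minus that in SKYD, a scale that understates the difference of low genes. The comparison took in the 10399 genes whose FPKM averaged 1 or more over the libraries, called tested genes here, and their median difference was -0.0035. Intervals (95% CI) are exact limits on how the reads of a gene split between the libraries. Only the error of counting is in them, and how mice differ is not.

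The sorted cells were checked against their label before the members were read. All 16 macrophage markers were tested, and Adgre1 and Itgam, the genes of F4/80 and CD11b, had 87.3 and 8.84 FPKM in PDR and 93.3 and 14.4 FPKM in SKYD. The markers together had 24954 FPKM in PDR and 48277 in SKYD, most of it from the lysozyme gene Lyz2 with 22217 and 41336 FPKM. None lay past 2-fold on the PDR side and 7 did on the SKYD side, among them C1qb, C1qc, Cd14 and C1qa, and the median of the list was -0.78. The list was not uniform: its differences ran from -2.65 for Cd14 to 0.54 for Fcgr1, and Fcgr1 and Csf1r were higher in PDR, while Timd4 did not differ detectably. Genes of each list are named below in the order of their mean FPKM over the libraries, and the order within a library can differ. Markers of B cells, T cells, cytotoxic lymphocytes, neutrophils, hepatocytes and erythroid cells had reads in both libraries too, and some stood far above Adgre1. Cd79b of B cells had 802 FPKM in PDR and 168 in SKYD, and Cd8b1 of T cells had 39.7 and 535. Apoa2 of hepatocytes had 793 and 294, and S100a9 of neutrophils had 2209 and 1677. The erythroid markers summed to 20989 FPKM in PDR and 28335 in SKYD. RNA typical of other cells was thus more than a trace in both pools. These lists are given below, most of them beside single members or inhibitors, whether or not both moved the same way. Fewer cells of a type and less RNA per cell cannot be told apart in pooled RNA.

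Of the 49 members, 30 passed the filter on FPKM, 13 cathepsins and 17 pump members. A member that passed through its level in only 1 library had to differ, as Atp6v0d2 did, so the counts over the tested members are a description. Among the cathepsins, Ctsc and Ctsg lay past 2-fold in PDR and Ctsl lay past 2-fold in SKYD. The pump had no member more than 2-fold higher in PDR, and Atp6v0d2 was the single member past that fold in SKYD. A difference past 2-fold was seen toward PDR in 7.38% of all tested genes and toward SKYD in 6.91%, and of the 8795 tested protein-coding genes 6.16% and 5.38%. Counts of 2 and 1 of 13 cathepsins and of 0 and 1 of 17 pump members are too small to be read apart from these shares. Past 1.5-fold, also counted on log2(FPKM + 1), 3 cathepsins and 0 pump members were higher in PDR against 15.1% of all tested genes, and 2 cathepsins and 3 pump members were higher in SKYD against 15.0%.

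The median difference was -0.06 for the tested cathepsins and -0.06 for the tested pump members, both close to that of all tested genes. Differences of the cathepsins ran from -1.44 for Ctsl to 2.28 for Ctsg, and those of the pump from -1.72 for Atp6v0d2 to 0.44 for Atp6v1b2. The value of Atp6v0d2 rests on the pseudocount and was -4.58 with 0.1. By FPKM, 13 of the 30 tested members were higher in PDR and 17 in SKYD, but set against the median of the macrophage markers, which shifts every gene by 0.78 on the log2 scale, 28 were higher in PDR and 2, Ctsl and Atp6v0d2, in SKYD. These tallies take every member by its sign, and by FPKM the intervals of 6 members (Ctsw, Atp6v1e1, Atp6v1d, Atp6v0d1, Atp6v0a2 and Atp6v0a1) held 0. After that shift 4 cathepsins (Ctsc, Ctse, Ctsg and Ctso) and 3 pump members (Atp6v1b2, Atp6v1c1 and Atp6v1h) were more than 2-fold higher in PDR, where 32.2% of all tested genes were, and none in SKYD, where 2.69% were. The shift thus decides the direction of 15 members, and it depends on the markers taken. Relative to Csf1r alone, a marker picked after its values were seen, Ctss was lower in PDR, at 37.9 times its FPKM against 54.3 times in SKYD. Rescaling to TPM, in which each library sums to the same total, or centring on the median of all tested genes changed the direction of 0 members. Centring on that median, -0.0035, could turn none, since every tested member differed by more. Rescaling to TPM moved Atp6v1e1, the member nearest 0 on the SKYD side, only from -0.029 to -0.018.

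**Figure D1:**
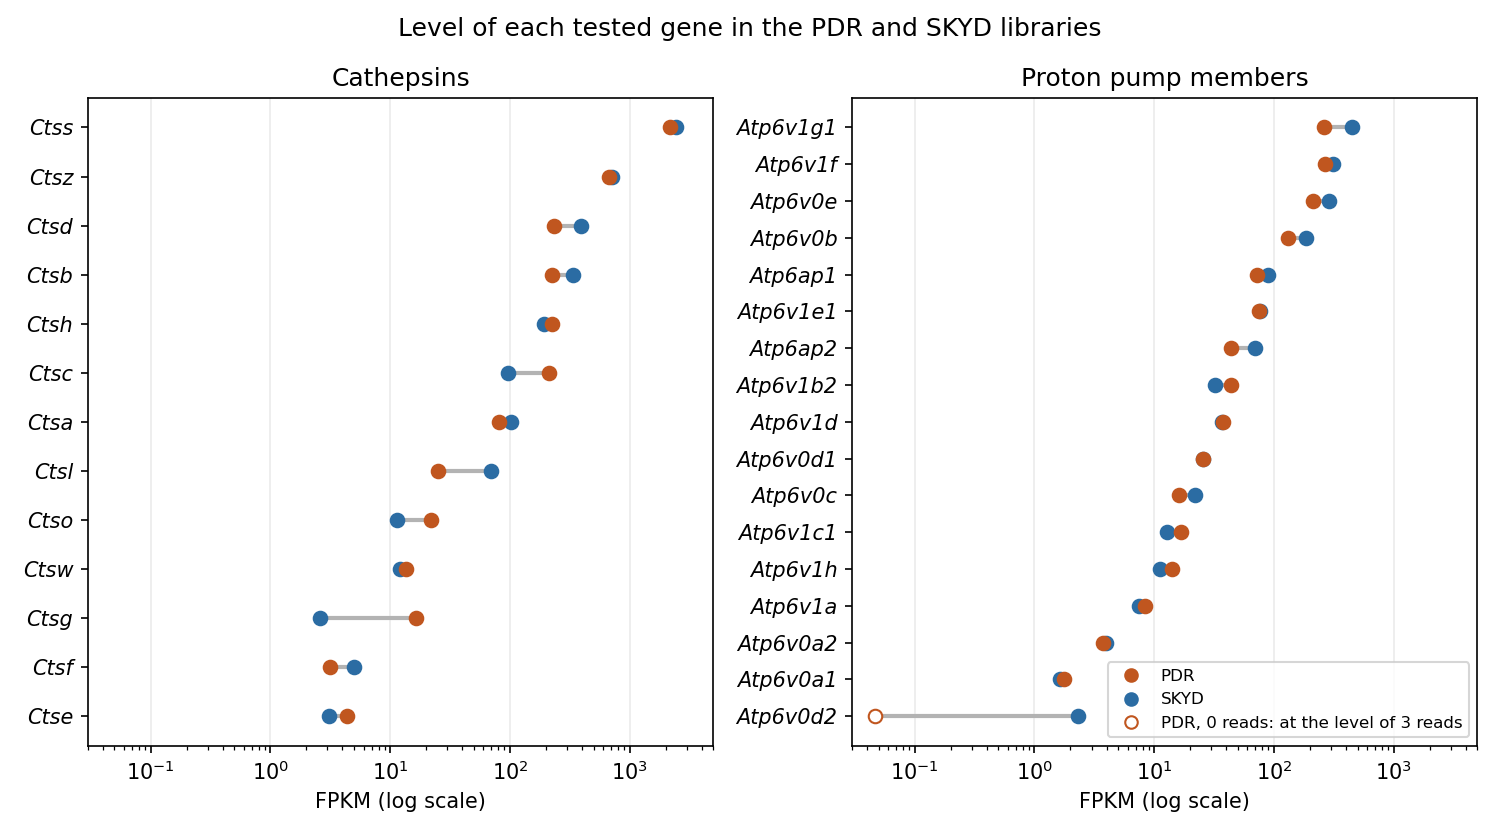
FPKM (log axis) of the 13 tested cathepsins and the 17 tested pump members in the PDR library (orange) and the SKYD library (blue), with Atp6v0d2, which had 0 reads in PDR, drawn there as an open circle at the level of 3 reads. Ctsl, Ctsc, Ctsg and Atp6v0d2 show the widest gaps, and Ctss stands above every other member in both libraries.

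Promoters of both sets were searched for the letters that lysosomal genes are known to share. The factors TFEB and TFE3 bind an element with the core CACGTG, and TCACGTGA is its longer form. Both read the same on either strand, and each TCACGTGA is also a CACGTG. RefSeq promoters on GRCm38.p6, 250 bases before to 50 bases after each start, matched 38 of the 49 members by symbol. TCACGTGA lay in those of 5 members (13.2%), against 1.12% of the 27025 genes with a promoter. Among tested genes it lay in 5 of 20 members (25.0%), against 2.29% of the 6987 protein-coding genes with a promoter. CACGTG lay in those of 9 members (23.7%), against 8.09% of all genes, and in 8 of 20 tested members (40.0%), against 11.8% of tested genes. The 5 members with the longer form were Ctsa, Ctsd, Atp6v0d1, Atp6v0e and Atp6v1a, and they are shown because proteases and pump subunits carry the same letters. A match describes letters only and is not a binding site. Because the letters were already known from lysosomal genes, their excess here could be foreseen and is no result of these libraries.

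The windows lie at chr2:164833749-164833778 and chr2:164833766-164833795 (plus strand, Ctsa), chr7:142387908-142387937 (minus strand, Ctsd), chr8:105566050-105566079 (minus strand, Atp6v0d1), chr17:26676387-26676416 (plus strand, Atp6v0e) and chr16:44139373-44139402 (minus strand, Atp6v1a). Each reads 5′ to 3′ along its gene with the motif in capitals. Ctsa has a further promoter in the search, which held neither form. Counted from RefSeq's start as base 1, the motif begins at -13 and 5 in Ctsa, at -99 in Ctsd, at -4 in Atp6v0d1, at 3 in Atp6v0e and at -132 in Atp6v1a.
Ctsa at -13: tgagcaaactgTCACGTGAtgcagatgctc
Ctsa at 5: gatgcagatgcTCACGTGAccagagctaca
Ctsd: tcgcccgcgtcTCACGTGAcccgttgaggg
Atp6v0d1: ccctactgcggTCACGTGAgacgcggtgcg
Atp6v0e: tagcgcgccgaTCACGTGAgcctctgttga
Atp6v1a: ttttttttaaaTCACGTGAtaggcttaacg

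The other tested members with CACGTG were Ctsf, Ctsl and Atp6v0b. Differences of the tested members that hold the core ran from -1.44 for Ctsl to 0.14 for Atp6v1a.

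Cysteine cathepsins made up most of the protease level. Ctss encodes cathepsin S, which trims the invariant chain of MHC class II and stays active near neutral pH. It had 2184 FPKM in PDR and 2439 FPKM in SKYD, from 69662 and 82779 reads. Both libraries carried it at a very high level, rank 27 of the protein-coding genes in PDR and rank 25 in SKYD. SKYD was higher by 1.12-fold (95% CI 1.11 to 1.13), a difference of -0.16. Ctsz, a lysosomal carboxypeptidase, came next with 675 FPKM in PDR and 705 FPKM in SKYD. These levels were close, with SKYD 1.04-fold higher (95% CI 1.03 to 1.06).

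Ctsb encodes cathepsin B, an abundant endopeptidase of macrophage lysosomes that also trims dipeptides from the ends of proteins. Its level was 225 FPKM in PDR and 338 FPKM in SKYD, from 31975 and 51044 reads. SKYD was higher, with a difference of -0.58 (95% CI -0.60 to -0.56). Exons of Fdft1 on the other strand cover 12.8% of the exon bases of Ctsb, and reads of the pair cannot be told apart without strand.

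Cathepsin L, the product of Ctsl (ENSMUSG00000021477, chr13:64359337-64370890, minus strand), is an endopeptidase that overlaps with cathepsin B in what it digests. Ctsl had 25.2 FPKM in PDR and 70.1 FPKM in SKYD, from 3837 and 11362 reads. It was the cathepsin with the largest excess in SKYD, 2.78-fold (95% CI 2.68 to 2.89), a difference of -1.44, and it kept that side when set against the macrophage markers. Other annotated exons overlap 6.09% of its exon bases on the same strand and 26.8% on the other strand, and their genes, Gm49230 and Gm47123, are listed at 0 in both libraries. The table divides its reads by 6489 bases against 1358 bases for Ctss, so the level of Ctsl relative to other genes depends on that length.

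Ctsc (ENSMUSG00000030560, chr7:88278085-88310888, plus strand) encodes dipeptidyl peptidase I, which activates granzymes and the serine proteases of neutrophil granules by removing their leading residues. Its level was 210 FPKM in PDR and 96.5 FPKM in SKYD, from 28714 and 14015 reads. PDR was higher by 2.18-fold (95% CI 2.14 to 2.22), a difference of 1.12. Ctsc and Ctsl therefore lay on opposite sides. The FPKM of Ctsc was 8.36 times that of Ctsl in PDR and 1.38 times in SKYD, and per base of the main annotated transcripts 18.5 and 3.05 times.

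Granzymes, which Ctsc activates, were read beside it. Among the cytotoxic lymphocyte markers, Gzma had 256 FPKM in PDR and 115 in SKYD, and Gzmb had 101 and 8.53. Of 12 markers on that list 11 were tested, 10 lay past 2-fold in PDR and none in SKYD, with a median of 1.48. Their summed level was 663 FPKM in PDR and 216 FPKM in SKYD, and Gzma, Nkg7 and Ccl5 had the highest mean FPKM. The part of these cells in the level of Ctsc was not tested.

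Ctsh, an aminopeptidase that also processes surfactant proteins, had 224 FPKM in PDR and 193 FPKM in SKYD. PDR was higher by 1.16-fold (95% CI 1.14 to 1.18). Ctso, a little-studied member of the papain family, had 22.1 FPKM in PDR and 11.4 FPKM in SKYD. Its excess in PDR, 1.94-fold in FPKM (95% CI 1.82 to 2.07) and 0.90 on the log2 scale, fell just short of the threshold. Ctsf, a broadly expressed lysosomal enzyme, stood at 3.15 FPKM in PDR and 4.96 FPKM in SKYD, from 146 and 245 reads. SKYD was higher by 1.58-fold (95% CI 1.28 to 1.95) in FPKM, a wide interval that reflects its few reads, but within 1.5-fold once the pseudocount is added.

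Ctsw is a cathepsin of natural killer cells and cytotoxic T cells and is retained in the endoplasmic reticulum of those cells. It had 13.7 FPKM in PDR and 12.1 FPKM in SKYD, from 395 and 374 reads. The libraries did not differ detectably at this depth, with a PDR to SKYD ratio of 1.12 (95% CI 0.973 to 1.30). The FPKM of Ctsw was 0.0952 times that of Nkg7 in PDR and 0.240 times in SKYD. T cell markers lay on the other side: all 9 were tested and more than 2-fold higher in SKYD, with a median of -2.36 and a summed level of 247 FPKM in PDR and 1458 FPKM in SKYD. Cd8b1, Cd3d and Trac had the highest mean FPKM, and Cd8b1 had 39.7 FPKM in PDR and 535 in SKYD. What either cell type gave to the reads of Ctsw was not tested.

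Ctsk, the collagen-degrading cathepsin of osteoclasts, was under the filter with 9 reads in PDR and 15 reads in SKYD. The placental cathepsins of rodents, Cts3, Cts6, Cts7, Cts8, Ctsj, Ctsm, Ctsq, Ctsr and Ctsll3, had 0 reads in both libraries, which allows up to 3 reads each. These 10 genes complete the 19 cysteine cathepsins of the table.

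The aspartic cathepsins went to opposite sides by FPKM and to the PDR side against the macrophage markers, Ctsd by only 0.03. Ctsd encodes cathepsin D, the main aspartic endopeptidase of lysosomes. It had 234 FPKM in PDR and 392 FPKM in SKYD, from 12901 and 23014 reads. SKYD was higher by 1.68-fold (95% CI 1.64 to 1.71), a difference of -0.74. The annotated gene Gm49369 shares 34.4% of the exon bases of Ctsd on the same strand and is listed at 0 in both libraries, and a read that fits both genes may have been left out by the counting. Ctse, an endosomal enzyme of antigen-presenting cells, had 4.36 FPKM in PDR and 3.10 FPKM in SKYD. PDR was higher by 1.41-fold (95% CI 1.19 to 1.67).

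B cell markers, which include cells that present antigen, moved further in the direction of Ctse. Of 8 such markers 6 were tested and all 6 lay past 2-fold in PDR, with a median of 2.22. The sum was 1642 FPKM in PDR and 379 FPKM in SKYD, and the highest means were those of Cd79b, with 802 and 168 FPKM, Cd79a and Ms4a1. Dendritic cell markers, of which 6 of 8 were tested, had 0 genes past 2-fold in PDR and 2 in SKYD, with a median of -0.62. Their sum was 106 FPKM in PDR and 217 FPKM in SKYD, and the highest means were those of Cd209a, with 42.4 and 167 FPKM, Ccr7 and Siglech, and Cd209a and Siglech were the genes past 2-fold. Neither list was tested as a source of Ctse.

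The serine cathepsins also split by FPKM and lay on the PDR side against the macrophage markers. Ctsa encodes a carboxypeptidase that protects beta-galactosidase and neuraminidase in a complex. It had 80.5 FPKM in PDR and 102 FPKM in SKYD, and SKYD was higher by 1.27-fold (95% CI 1.23 to 1.30). Its partners were Glb1, with 14.8 FPKM in PDR and 22.8 in SKYD, and Neu1, with 13.8 and 12.9. Exons of Neurl2 and Pltp on the other strand cover 17.4% of the exon bases of Ctsa.

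Ctsg (ENSMUSG00000040314, chr14:56099881-56102574, minus strand) encodes a protease stored in the azurophil granules that form in neutrophil precursors. Its level was 16.4 FPKM in PDR and 2.60 FPKM in SKYD, from 399 and 67 reads. On the log2(FPKM + 1) scale it had the largest difference of all tested members, 6.34-fold higher in PDR (95% CI 4.88 to 8.34) and 2.28 on that scale. Genes of the granulocyte precursor list were then read beside it. Elane had 34.1 FPKM in PDR and 5.81 in SKYD, and Mpo, which encodes myeloperoxidase, had 5.81 and 0.841.

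Ctsg thus kept nearly the same proportion to both genes in the libraries. Its FPKM was 0.482 times that of Elane in PDR and 0.446 times in SKYD, and 2.83 and 3.08 times that of Mpo. Prtn3 did not follow, with 49.2 FPKM in PDR and 83.4 in SKYD. The FPKM of Ctsg was 0.334 times that of Prtn3 in PDR and 0.0311 times in SKYD. These ratios were chosen after the values were seen. All 4 precursor markers were tested, and 3 of them (Elane, Ms4a3 and Mpo) were more than 2-fold higher in PDR. The list summed to 99.6 FPKM in PDR and 91.2 FPKM in SKYD, its most abundant gene was Prtn3, and its median was 2.13. Neutrophil markers were all 10 tested, with 2 (Ltf and Ly6g) more than 2-fold higher in PDR and none in SKYD, a median of 0.62 and a sum of 4855 FPKM in PDR and 3731 FPKM in SKYD. S100a9, S100a8 and Ngp had the highest means, and S100a9 had 2209 FPKM in PDR and 1677 in SKYD. The part of such cells in the reads of Ctsg was not tested. Without Ctsg, Ctsw and Ctse, which other cell types are known to express, 1 cathepsin was more than 2-fold higher in PDR and the cathepsin median was -0.25.

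**Figure D2:**
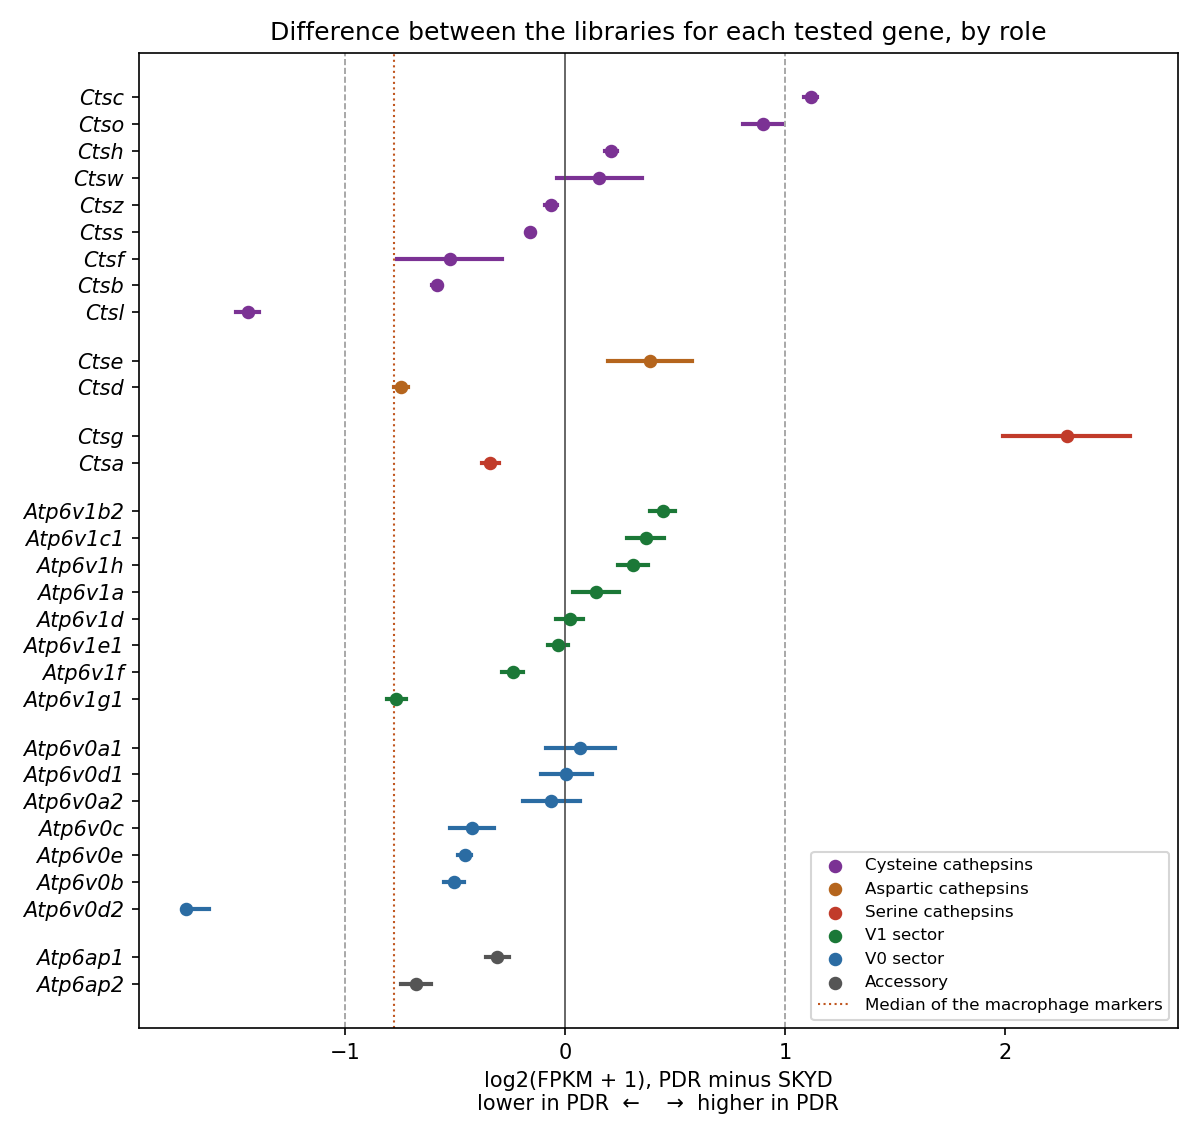
Difference of log2(FPKM + 1), PDR minus SKYD, for each tested member by role, with 95% counting intervals as bars, a 2-fold difference as dashed lines and the macrophage marker median of -0.78 as the dotted line. Ctsc and Ctsg lie beyond 2-fold on the PDR side, Ctsl and Atp6v0d2 on the SKYD side, and the 15 members between the dotted line and 0 change direction when the markers are taken as the reference.

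The pump was read sector by sector. V1 has a ring of A and B subunits that burns ATP, a central rotor of D and F, outer stalks of E and G, and C and H subunits that join it to V0 and regulate it. The tested V1 genes were 8, of which 5 were higher in PDR and 3 in SKYD by FPKM, while set against the macrophage markers 7 were higher in PDR and Atp6v1g1, at 0.01, had no detectable side. Atp6v1d, counted in PDR, and Atp6v1e1, counted in SKYD, did not differ detectably by FPKM. None was past 2-fold, and the median was 0.08.

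Atp6v1a, the gene of the catalytic A subunit, had 8.40 FPKM in PDR and 7.53 FPKM in SKYD. PDR was 1.12-fold higher (95% CI 1.03 to 1.21). Its partner in the ring is the B subunit, and Atp6v1b2 had 43.9 FPKM in PDR and 32.0 FPKM in SKYD, from 5473 and 4246 reads. Among the tested pump members this was the largest excess in PDR, 1.37-fold (95% CI 1.32 to 1.43) and 0.44 on the log2 scale. A and B are built into the ring in equal numbers, yet the FPKM of Atp6v1b2 was 5.23 times that of Atp6v1a in PDR and 4.25 times in SKYD. Per base of the main annotated transcript of each gene the ratio was 6.88 and 5.59.

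Atp6v1g1, the gene of the G subunit of the outer stalks, had 264 FPKM in PDR and 449 FPKM in SKYD, from 7028 and 12727 reads. Its excess lay in SKYD, 1.70-fold (95% CI 1.65 to 1.75), a difference of -0.76. Atp6v1e1, which encodes the E subunit that pairs with G, had 75.4 FPKM in PDR and 77.0 FPKM in SKYD. Those levels did not differ detectably, with a SKYD to PDR ratio of 1.02 (95% CI 0.989 to 1.05). The FPKM of Atp6v1g1 was 3.49 times that of Atp6v1e1 in PDR and 5.83 times in SKYD, but per base of the main transcripts it was 1.12 and 1.86 times, because the table gives Atp6v1e1 a length of 4110 bases and its main transcript has 1312. Levels of different genes are therefore read with care here, while the difference of a gene between the libraries does not depend on its length except through the pseudocount.

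Atp6v1f, a rotor gene, had 265 FPKM in PDR and 313 FPKM in SKYD. SKYD was 1.18-fold higher (95% CI 1.14 to 1.22). The other rotor gene, Atp6v1d, had 37.3 FPKM in PDR and 36.7 FPKM in SKYD, with a PDR to SKYD ratio of 1.02 (95% CI 0.973 to 1.06). The rotor genes thus differed from each other by more than counting error. Whether they would do so from mouse to mouse cannot be read from 1 library per group. Atp6v1c1, whose C subunit leaves the complex when V1 and V0 come apart, had 16.7 FPKM in PDR and 12.7 FPKM in SKYD, a 1.31-fold excess in PDR (95% CI 1.23 to 1.40). Atp6v1h, which encodes the regulatory H subunit, had 14.2 FPKM in PDR and 11.3 FPKM in SKYD, a difference of 0.31 (95% CI 0.24 to 0.38) on the PDR side. The A, B, C and H genes thus lay on the PDR side by FPKM and the F and G genes on the SKYD side, whereas against the macrophage markers all but Atp6v1g1, which had no detectable side, lay on the PDR side.

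Of 7 tested V0 genes 5 were higher in SKYD and 2 in PDR by FPKM, whereas against the macrophage markers 6 were higher in PDR and Atp6v0d2 in SKYD. Both counted in PDR by FPKM, Atp6v0d1 and Atp6v0a1, and Atp6v0a2 among the 5 did not differ detectably, so that no V0 gene taken by the name rule was detectably higher in PDR. By FPKM 0 were past 2-fold in PDR and 1 in SKYD, and the median was -0.42. The proton-carrying ring of V0 is built from the products of Atp6v0c and Atp6v0b. Atp6v0b had 131 FPKM in PDR and 186 FPKM in SKYD, from 6290 and 9521 reads. This was a 1.42-fold excess in SKYD (95% CI 1.38 to 1.47). For Atp6v0c the values were 16.0 FPKM in PDR and 21.8 FPKM in SKYD, a 1.36-fold excess in SKYD (95% CI 1.27 to 1.46). The pseudogene Atp6v0c-ps2 shares 24.5% of the 100-base windows of the Atp6v0c transcript, so the split of reads between them is uncertain.

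Atp6v0e, which encodes the small e subunit of the membrane sector, had 210 FPKM in PDR and 289 FPKM in SKYD, from 16109 and 23523 reads. The excess in SKYD was 1.37-fold (95% CI 1.34 to 1.40). Its paralog Atp6v0e2 was under the filter with 22 reads in PDR and 24 in SKYD, so Atp6v0e held 99.8% of the e subunit FPKM in PDR and 99.9% in SKYD.

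The d subunit couples the rotor to the ring and has a common and a restricted form. Atp6v0d1, the common form, had 25.5 FPKM in PDR and 25.3 FPKM in SKYD, from 1073 and 1136 reads. The ratio of PDR to SKYD was 1.01 (95% CI 0.924 to 1.09), so no difference was detectable. Atp6v0d2 (ENSMUSG00000028238, chr4:19876841-19922605, minus strand), the form known from osteoclasts and some macrophages, had 0 reads in PDR and 156 in SKYD, or 0 and 2.30 FPKM. Set against a floor of 3 reads in PDR, SKYD was at least 48.9-fold higher, a value that leaves out the counting error of the SKYD reads, and the exact 95% limit was 39.3-fold. Atp6v0d2 held 8.31% of the d subunit FPKM in SKYD, and the remaining 91.7% came from Atp6v0d1.

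Osteoclast markers were read beside Atp6v0d2. Of 9 listed, 4 were tested, with 0 past 2-fold in either direction and a median of 0.18. Their sum was 86.8 FPKM in PDR and 141 FPKM in SKYD, nearly all from Acp5 with 77.4 and 132 FPKM, followed by Nfatc1 and Mmp9. The defining markers Calcr and Oscar were at 0 in both libraries, and Ctsk had the few reads given above. Dcstamp, a membrane protein of cell fusion, was under the filter and had 0 reads in PDR and 89 in SKYD. Ocstamp, which was tested, did not differ detectably, with 117 reads in PDR and 140 in SKYD. The part of such cells in the reads of Atp6v0d2 was not tested.

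The a subunit carries the proton path and decides where a pump is placed. Atp6v0a2 had 3.77 FPKM in PDR and 3.97 FPKM in SKYD, and Atp6v0a1 had 1.77 and 1.64. Neither differed detectably, with a SKYD to PDR ratio of 1.06 (95% CI 0.943 to 1.18) for Atp6v0a2 and a PDR to SKYD ratio of 1.08 (95% CI 0.909 to 1.28) for Atp6v0a1. The name rule leaves out Tcirg1, which encodes the a subunit typical of macrophage lysosomes and osteoclasts. It had 14.3 FPKM in PDR and 8.34 FPKM in SKYD, from 1504 and 932 reads. Tcirg1 was the most abundant a subunit gene in both libraries, with 72.1% of the a subunit FPKM in PDR and 59.8% in SKYD, and its difference of 0.71 lay on the PDR side.

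Accessory members both lay on the SKYD side by FPKM and on the PDR side against the macrophage markers. Atp6ap1, which guides assembly of the pump in the secretory pathway, had 72.2 FPKM in PDR and 89.6 FPKM in SKYD, from 5132 and 6778 reads. The difference was -0.31 (95% CI -0.36 to -0.26), higher in SKYD. Atp6ap2, also known as the prorenin receptor, had 43.4 FPKM in PDR and 69.8 FPKM in SKYD. Its excess in SKYD was 1.61-fold (95% CI 1.53 to 1.69), a difference of -0.67.

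Subunit genes known from kidney, brain and other specialised tissues were low or at 0. Atp6v1g2 had 39 reads in PDR and 27 in SKYD, and Atp6v1c2 had 17 and 13. Atp6v1g3 had 8 reads in PDR and 0 in SKYD, and the exact 95% limit put PDR higher by 1.82-fold or more. These 3 were under the filter. Atp6v1b1, Atp6v1e2, Atp6v0a4 and Atp6ap1l had 0 reads in both libraries, as did Atp6v1fnb, which is named for its place next to Atp6v1f and is not a subunit. Apart from the a and d subunits, a single gene thus held at least 98.0% of the FPKM of each subunit that has paralogs, in both libraries.

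The sets were next compared as wholes within each library, where a common scale drops out. The cathepsins summed to 3917 FPKM in PDR and 4370 FPKM in SKYD, and the pump to 1230 and 1629 FPKM. Both sums were higher in SKYD by FPKM, a direction that the macrophage markers as the reference would turn, since their own sum was higher still in SKYD. The ratio of cathepsins to pump was 3.19 in PDR and 2.68 in SKYD, so that relative to the pump the cathepsins stood 1.19 times higher in PDR. Without Ctss alone, an alternative chosen after the data were seen, the ratios of cathepsins to pump were 1.41 in PDR and 1.19 in SKYD. Cathepsins B, D and L, grouped after their values were seen, gave the opposite order, 0.393 times the pump in PDR and 0.491 times in SKYD. V1 stood to V0 as 1.87 in PDR and 1.77 in SKYD.

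Reads of the cathepsins were 0.894% of all reads on genes in PDR (95% CI 0.890 to 0.898) and 0.959% in SKYD (95% CI 0.955 to 0.963). The pump took 0.306% in PDR (95% CI 0.303 to 0.308) and 0.360% in SKYD (95% CI 0.358 to 0.363). Both shares were larger in SKYD, but so was that of all tested protein-coding genes, 87.8% in PDR and 92.5% in SKYD. In summed FPKM these genes stood 1.17-fold higher in SKYD, the cathepsins 1.12-fold and the pump 1.32-fold. The pump thus differed more than these genes on both measures, though less than the summed macrophage markers, and the cathepsins differed slightly more in share of reads and less in summed FPKM. A few genes carried each set. Ctss and Ctsz held 73.0% of the cathepsin FPKM in PDR and 72.0% in SKYD, while Atp6v1g1, Atp6v1f, Atp6v0e and Atp6v0b held 70.7% and 75.9% of that of the pump.

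**Figure D3:**
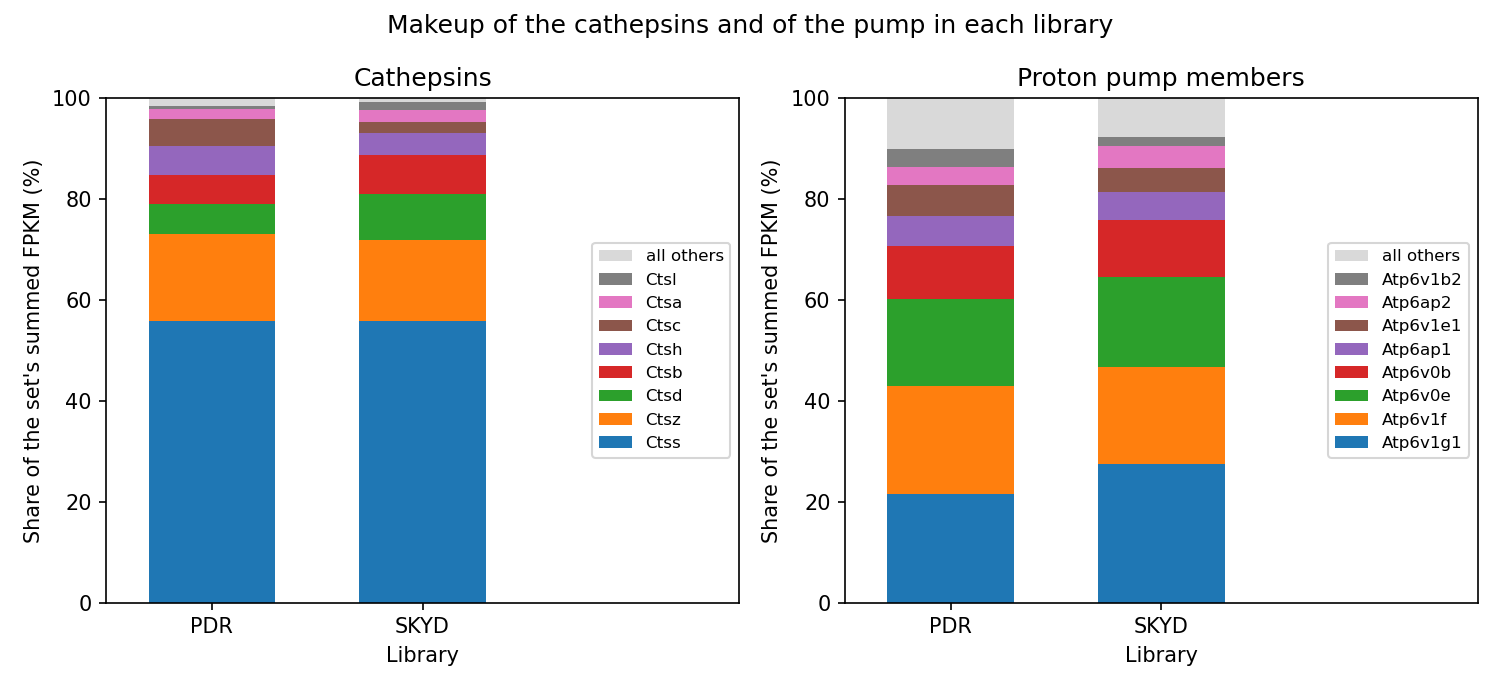
Share (%) of the summed FPKM of the cathepsins and of the pump that each of the most abundant members held in the PDR and SKYD libraries, with all other members in grey. Ctss took 55.8% in both libraries, Ctsd went from 5.96% in PDR to 8.96% in SKYD, Ctsc from 5.37% to 2.21%, and Atp6v1g1 from 21.4% to 27.5%.

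Other lysosomal genes were set beside the members from 7 lists. Among 34 tested hydrolases and their activators, 1 was more than 2-fold higher in PDR and 0 in SKYD, with a median of -0.11. Ifi30, which reduces disulfide bonds before cathepsins cut, had 278 FPKM in PDR and 302 in SKYD. Psap, the precursor of the saposins and a substrate of cathepsin D, had 158 and 296, and Hexa, a subunit of beta-hexosaminidase, had 155 and 265. The gene past 2-fold was Acp2, an acid phosphatase, with 10.4 FPKM in PDR and 4.44 in SKYD. Like the cathepsins, the list had a median close to 0 and genes on both sides.

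Of the 7 other lysosomal proteases none was past 2-fold, and the median was -0.25. Napsa, an aspartic protease close to cathepsin D, had 141 FPKM in PDR and 127 in SKYD. Scpep1, a carboxypeptidase, had 83.8 and 59.9, and Lgmn, which cuts several cathepsins to their mature form, had 47.7 and 77.1. Lgmn thus stood on the same side as Ctsb, Ctsd and Ctsl by FPKM.

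Membrane proteins of the lysosome leaned furthest to SKYD among the 7 lists, with a median of -0.36 by FPKM that would lie on the PDR side after the shift of 0.78. Of 22 tested, 0 were past 2-fold in PDR and 1 in SKYD, which was Cd63 with 13.4 FPKM in PDR and 39.0 in SKYD. Cd68, also on the macrophage list, had 259 and 388, Lamp1 had 280 and 295, and Laptm5 had 199 and 349.

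Cathepsin inhibitors had the highest median of these lists, 0.58 over 11 tested genes. That median was the value of Stfa3, from 33 reads in PDR and 20 in SKYD, with an interval (-0.02 to 1.17) that held 0. The summed level of the list went the other way, with 3236 FPKM in PDR and 4147 FPKM in SKYD. The highest mean levels were those of Cst3, the secreted cystatin C, with 2154 FPKM in PDR and 3236 in SKYD, the cytosolic cystatin Cstb with 533 and 602, and Serpinb1a, an inhibitor of neutrophil proteases that include cathepsin G, with 178 and 216. These 3 were higher in SKYD by FPKM, while Serpina3g, which stood above Serpinb1a in PDR, was not. Past 2-fold, Serpina3g, Kng1 and Cst7 were higher in PDR and Serpinb6a in SKYD. Serpina3g, an inhibitor of cysteine cathepsins in activated lymphocytes, had 288 FPKM in PDR and 37.5 in SKYD. Cst7, which encodes cystatin F, an inhibitor of cathepsin C, had 21.4 and 9.90, on the same side as Ctsc. For Serpinb6a, an inhibitor of cathepsin G, the values were 14.4 and 31.3, opposite to Ctsg.

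Kng1, the kininogen gene, is made in liver and had 28.9 FPKM in PDR and 6.78 in SKYD. All 8 hepatocyte markers were more than 2-fold higher in PDR too, with a median of 1.82 and a sum of 2203 FPKM in PDR and 743 FPKM in SKYD. Apoa2 led them with 793 and 294 FPKM, followed by Fabp1, Apoa1 and Alb. Their part in the level of Kng1 was not tested.

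Sorting genes that carry cathepsins to the lysosome had a median of 0.04 over 8 tested. M6pr, a mannose 6-phosphate receptor, had 51.4 FPKM in PDR and 46.7 in SKYD. Gnptg and Nagpa, which make the mannose 6-phosphate tag, had 20.3 and 22.9 in PDR and 29.1 and 23.9 in SKYD. The adaptor Gga2 was the gene past 2-fold, with 5.10 FPKM in PDR and 1.61 in SKYD.

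Pump partners outside the name rule had a median of -0.10 over 7 tested genes, none past 2-fold. The highest mean levels were those of Ccdc115 and Tmem199, assembly factors with 28.9 and 13.5 FPKM in PDR and 38.2 and 17.0 in SKYD, and Rogdi with 14.8 and 11.7. Regulators of lysosomal genes had a median of -0.26 over 11 tested genes, none past 2-fold. The Ragulator subunits Lamtor5, Lamtor4 and Lamtor2, which anchor nutrient sensing to the lysosome beside the pump, had 329, 115 and 80.9 FPKM in PDR and 359, 138 and 138 in SKYD. Tfeb, whose factor binds the element searched for above, had 6.62 FPKM in PDR and 3.66 in SKYD, while Tfe3 had 2.11 and 2.13. Others of the same family went the other way, Tfec with 2.21 and 4.12 FPKM and Mitf, under the filter, with 63 and 129 reads.

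**Figure D4:**
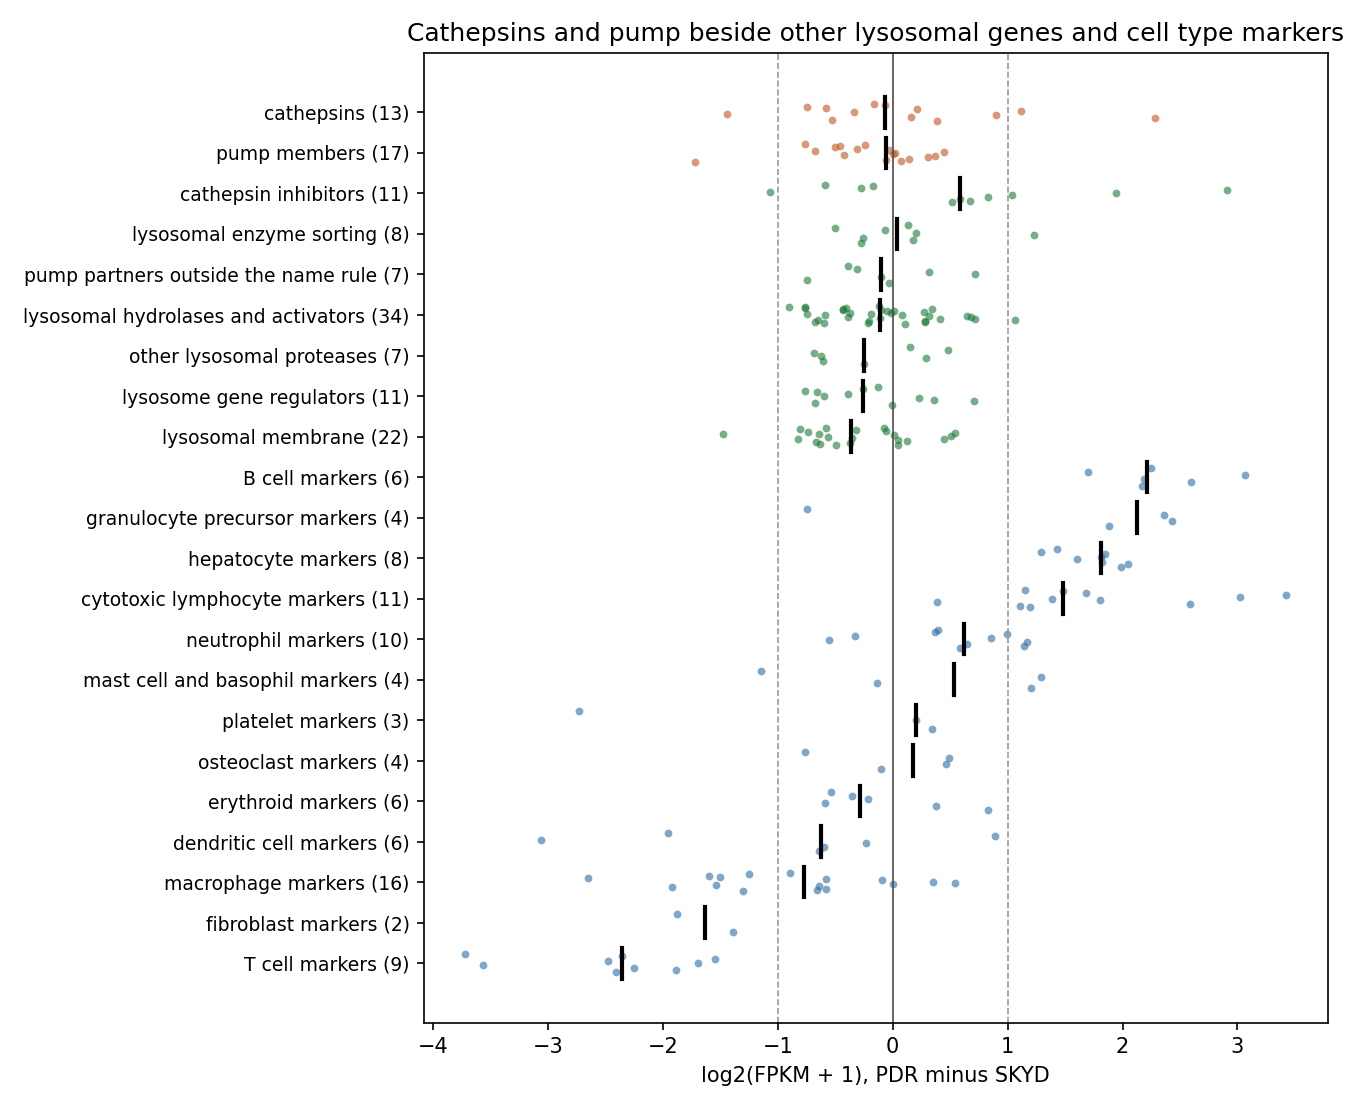
Difference of log2(FPKM + 1), PDR minus SKYD, of each tested gene (points, number in brackets) and the median (black bar) for the cathepsins and the pump, 7 lists of other lysosomal genes and 13 lists of cell type markers, with a 2-fold difference as dashed lines. Medians of the members lie near 0 at -0.06 and, with a shift by the macrophage median of -0.78, on the PDR side, while those of the B cell and T cell markers lie at 2.22 and -2.36.

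The remaining marker lists were read for cells that could add lysosomal RNA. Of the mast cell and basophil list 4 of 8 genes were tested, with 2 (Mcpt8 and Cma1) past 2-fold in PDR and 1 (Cpa3) in SKYD, a median of 0.54 and a sum of 17.7 FPKM in PDR and 19.7 FPKM in SKYD. Cpa3, Mcpt8 and Fcer1a had the highest means, and the defining markers Mcpt4 and Tpsb2 were at 0. Fibroblast markers had 2 of 6 genes tested, Dcn and Lum, both past 2-fold in SKYD, with a median of -1.63 and a sum of 10.8 FPKM in PDR and 43.7 FPKM in SKYD, and Dcn, Lum and Col3a1 had the highest means. Erythroid markers, led by Hba-a1, Hbb-bs and Hbb-bt, had 0 of 6 tested genes past 2-fold, a median of -0.29 and a sum of 20989 FPKM in PDR and 28335 FPKM in SKYD. Platelet markers, led by Pf4, Ppbp and Gp9, had 3 of 5 genes tested and 1, Pf4, past 2-fold in SKYD. Their median was 0.20, their sum was 247 FPKM in PDR and 1469 FPKM in SKYD, and Gp1bb was at 0. The part of these cells in the levels of the cathepsins and the pump was not tested.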

How the data were processed

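The sequenced RNA came from sorted aortic cells, 1 pooled library per group. The authors aligned reads with TopHat2 2.0.9 and Bowtie2 2.0.6, counted them with HTSeq 0.6.1 and deposited FPKM for 54532 genes. The authors named DESeq in the article and edgeR in the supplement for differential expression. The labels name mm9, but 98.3% of the gene positions, and those of 45 of the 49 members, equal GENCODE M21 on GRCm38. The library sizes behind FPKM were 1.02 times the recovered reads in PDR and 0.983 times in SKYD, and the product of these factors was 1.0. FPKM thus held a scaling between the libraries beyond the sum of reads, and the article does not describe it. The median difference of -0.0035 over all tested genes was taken after that scaling.

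Members, 7 pathway lists and 13 marker lists were chosen with earlier results of these data known. Named were all tested members, the 3 most abundant genes of each list and up to 4 past 2-fold. Adgre1 and Itgam were named for the label. Pair ratios and Gzmb, Glb1, Neu1, Tcirg1, Tfeb, Tfe3, Tfec, Mitf, Dcstamp, Ocstamp and Stfa3 were chosen after their values were seen. The planned B cell list had 1 more gene, which is not reported here and was taken out of the list after the data were seen. No p-value was computed. Alternatives changed the pseudocount, filter, scale, centring, fold and members. Steps were tested on simulated data with scipy 1.17.1, pandas 2.3.3, numpy 2.4.6 and matplotlib 3.10.9 under Python 3.11.15.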

Additional observations from a re-analysis of the deposited data

How the results depend on the processing

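With 1 library per group, depth sets only the counting error, and no paired analysis was possible because each group had 1 library. Of 62 alternatives of the set results 45 stayed close to the values above, and the cause of the changes below was not tested. With no filter both medians were 0. At a mean FPKM of at least 5 the pump median was -0.13 and 0 pump members were past 2-fold in SKYD, as with at least 1 FPKM in both libraries, since Atp6v0d2 then drops out. Centred on the macrophage markers, 4 cathepsins and 3 pump members were past 2-fold in PDR and 0 and 0 in SKYD, with medians of 0.71 and 0.71. Without Ctsg, Ctsw and Ctse, 1 cathepsin was past 2-fold in PDR and the cathepsin median was -0.25. At 1.5-fold on log2(FPKM + 1), 2 cathepsins and 3 pump members were higher in SKYD. The PDR to SKYD ratio of the cathepsin to pump ratios was 1.10 without Ctss and Atp6v1g1 and 1.10 from recovered reads, against 1.19. It was 1.18 per base of the main transcripts, an alternative chosen after the data were seen. No named member past 2-fold changed sign in any setting.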
